A study of Chlorocebus aethiops with 30 samples.

Results

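DEPP1, IER5L and FOXQ1 are 3 genes that stood on the small side of genes with more RNA after trypsin than after TrypLE in Vero cells collected directly after detachment. They were chosen by name, as regulators, from the deposited comparison of these groups, so the values of that comparison chose them. That table holds 1237 genes, 531 of them higher and 706 lower after trypsin, and 35 of the higher genes had an adjusted p below 0.05. DEPP1 alone of the 3 is also among the 340 genes of a second deposited table, which gives 1 mean for each of 7 groups.

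Vero is an established epithelial line from African green monkey kidney, labelled wild type in every sample. The series holds 30 samples in 10 groups of 3, which the submitters describe as biological replicates without saying how the cultures were separated. The groups used here were all treated at 37 °C. Values for single libraries cover cells collected at 0 h, straight after trypsin or after TrypLE, a recombinant substitute for trypsin. Means cover these and cells returned to culture for 8 or 24 h after either enzyme and then lifted with an enzyme-free solution, as well as control cells taken with the enzyme-free solution alone. The 9 samples treated with TrypLE from 4 °C were not analysed here.

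Each of the 3 genes acts in control of other proteins. DEPP1, first described as induced by progesterone in the decidua, is switched on by FOXO transcription factors, which become active when growth factor signalling through AKT is low, and it takes part in autophagy and in the handling of oxidative stress. FOXQ1 is a DNA-binding protein of the forkhead family, known in epithelial cells and carcinomas for repressing E-cadherin and for promoting a mesenchymal shape and Wnt signalling. IER5L belongs to the immediate early response family, whose members are small nuclear proteins that bind protein phosphatase 2A.

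In the authors' gene models, DEPP1 (gene 103215789) runs from 45800538 to 45802078 on the plus strand of its scaffold, a span of 1541 bases of which 985 are counted as gene length, so that 556 bases lie outside the exons. IER5L (gene 103239774) runs from 576232 to 578931 on the minus strand, and FOXQ1 (gene 103222309) from 1256352 to 1258997 on the plus strand. The spans of IER5L and FOXQ1, 2700 and 2646 bases, equal their counted lengths, which leaves no intron in either model. All are annotated as protein coding. The sources used here give neither the genome build behind these positions nor the use of strand in counting, so reads of an overlapping antisense gene could not be told apart. The table assigns the forkhead family to FOXQ1, the Pfam family of immediate early response proteins to IER5L and that of the progesterone-induced decidual protein to DEPP1.

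DEPP1, the FOXO-responsive gene, was higher in every trypsin library than in any TrypLE library. Its normalised read counts, that is reads divided by a size factor of the library, were 984, 729 and 764 for replicates 1, 2 and 3 of the trypsin group. TrypLE replicates 1, 2 and 3 had 445, 544 and 488. Trypsin replicate 1 stood above the other two, and the groups were separated by a gap of 184 counts between the lowest trypsin and the highest TrypLE library. The group means were 826 ± 139 and 493 ± 49.7 (SD, n = 3 each), a ratio of 1.68. In the authors' deposited table its log2 fold change is 0.74, at an adjusted p of 0.00015.

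IER5L, the relative of the immediate early gene IER5, had normalised counts of 1125, 1031 and 920 in trypsin replicates 1, 2 and 3. In TrypLE replicates 1, 2 and 3 it had 429, 754 and 704. The groups did not overlap, but TrypLE replicate 1 lay far below the other two TrypLE libraries. The means were 1025 ± 103 and 629 ± 175 (SD, n = 3 each), a ratio of 1.63, and the spread was wider after TrypLE, with a coefficient of variation of 27.9% against 10.0%. In the authors' deposited table the log2 fold change is 0.70 and the adjusted p is 0.0076.

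FOXQ1, the forkhead factor, had the fewest reads of the 3 genes. Its normalised counts were 239, 176 and 128 for replicates 1, 2 and 3 of the trypsin group, while TrypLE replicates 1, 2 and 3 had 88.7, 108 and 106. Again no library of one group fell within the range of the other, yet trypsin replicate 3 came close to the TrypLE libraries. The 95% exact Poisson interval of that library, 106 to 153, overlapped those of all 3 TrypLE libraries. These were 71.4 to 109, 89.5 to 130 and 87.0 to 129 for TrypLE replicates 1, 2 and 3. The closest libraries, trypsin replicate 3 and TrypLE replicate 2, rest on 121 and 118 reads. For DEPP1 and IER5L the corresponding intervals of the closest libraries were apart. Such intervals cover counting error only. The means were 181 ± 55.4 and 101 ± 10.8 (SD, n = 3 each), a ratio of 1.79. The coefficient of variation was 30.6% after trypsin, where counting alone would give one of 7.47%. The authors' deposited table gives a log2 fold change of 0.84 and an adjusted p of 0.0434.

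**Figure D1:**
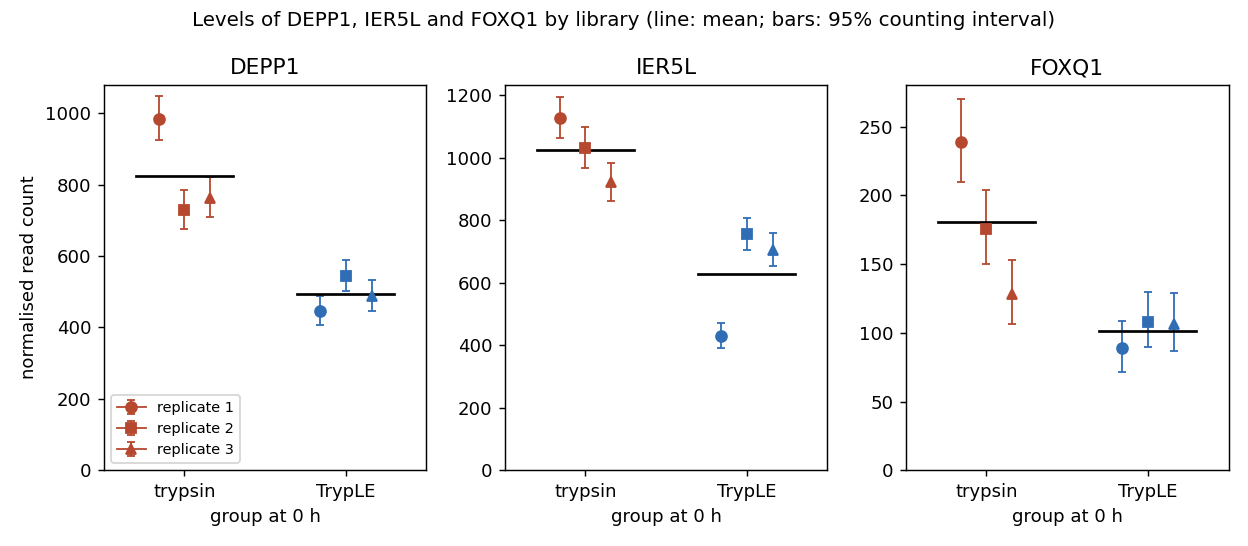
Normalised read counts of DEPP1, IER5L and FOXQ1 (vertical axes, from 0) in the 3 trypsin and 3 TrypLE libraries at 0 h, with the replicate shown by the symbol, the group mean by a line and the 95% counting interval by bars. In each gene trypsin replicate 1 is the highest and TrypLE replicate 1 the lowest of the 6 libraries.

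All 3 genes thus had an adjusted p below 0.05 in the direction higher after trypsin, which 2.83% of the 1237 listed genes had. All 3 also had groups that did not overlap in this direction, as did 28.6% of the listed genes. Both properties belong to the comparison the genes were chosen from and are a description. By size of fold they ranked 8 (FOXQ1), 12 (DEPP1) and 14 (IER5L) among the 35 genes past the threshold on this side, whose log2 fold changes ran from 0.44 to 4.86 with a median of 0.65. By adjusted p, DEPP1 ranked 6, IER5L 14 and FOXQ1 35, the last place. FOXQ1 was therefore the gene just inside the threshold on this side, next to TOP2A with an adjusted p of 0.0433. The first higher gene with a symbol outside it was GOLGA4 with 0.0556, all in the authors' deposited table. The RNA was taken from whole cultures, in which more cells with a transcript and more RNA per cell cannot be told apart.

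Per kilobase of gene length, the 3 genes differed widely in level. After trypsin, DEPP1 had 838 ± 141, IER5L 380 ± 38.0 and FOXQ1 68.3 ± 20.9 normalised counts per kilobase (SD, n = 3 each). After TrypLE the levels per kilobase were 500.2 ± 50.4, 233 ± 64.9 and 38.2 ± 4.07. The order DEPP1, IER5L, FOXQ1 was the same in each of the 6 libraries, with DEPP1 at 1.90 to 2.85 times IER5L and 11.1 to 16.0 times FOXQ1 per kilobase. Of the listed genes, 80.6% had a lower trypsin level per kilobase than DEPP1, 68.2% a lower one than IER5L and 32.7% a lower one than FOXQ1.

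The libraries numbered 1 held the extremes of all 3 genes, with trypsin replicate 1 the highest and TrypLE replicate 1 the lowest of the 6. This held for 5.98% of the listed genes and for 8 of the 35 genes past the threshold on the higher side, these 3 included. Between libraries of the same number, the ratio of trypsin to TrypLE for DEPP1 was 2.21, 1.34 and 1.56 at numbers 1, 2 and 3. For IER5L it was 2.62, 1.37 and 1.31, and for FOXQ1 2.69, 1.62 and 1.20. All 9 ratios were above 1, and number 1 gave the widest ratio of each gene. Across the listed genes, the deviations of same-numbered libraries from their group means did not run together, so the numbers are not treated as pairs. The genes were selected for a group difference, so this cannot settle whether the samples were paired. Without both libraries numbered 1, edgeR gave log2 fold changes of 0.53 for DEPP1, 0.42 for IER5L and 0.50 for FOXQ1, against 0.74, 0.70 and 0.84 with all 6.

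Refitting the listed genes left the direction of the 3 genes in place in each of 16 settings, but not every call. The fits used reads recovered from the normalised counts, except those with limma, which used the normalised counts themselves. DEPP1 passed an adjusted p of 0.05 in 14 of them, IER5L in 8 and FOXQ1 in 3. With the authors' size factors and all 6 libraries, the edgeR quasi-likelihood fit gave adjusted p of 0.0138 for DEPP1, 0.0481 for IER5L and 0.0834 for FOXQ1, and called 1.39% of the genes fitted as higher. Leaving out trypsin replicate 1 or TrypLE replicate 1 left 0 of the 3 genes past the threshold in edgeR, although all 3 had an unadjusted p below 0.05 in both fits. DEPP1 then had adjusted p of 0.0636 and 0.107, IER5L 0.161 and 0.265, and FOXQ1 0.391 and 0.342. These fits called 2.84% and 0.951% of the genes fitted as higher. Without both libraries numbered 1, DEPP1 and IER5L passed in edgeR (adjusted p of 0.0157 and 0.0292) and FOXQ1 did not (0.378). That fit called 20.9% of the genes fitted as higher. Over the 16 settings this share ran from 0.519% to 20.9%. The refits use the same libraries that chose the genes and are no separate evidence. Factors taken over the listed genes raised the log2 fold changes, to 0.89 (DEPP1), 0.85 (IER5L) and 0.99 (FOXQ1) with TMM and to 0.93, 0.89 and 1.02 with median ratios. These factors move the median of the genes fitted from -0.29 to -0.14 and to -0.10, since most listed genes were lower.

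**Figure D2:**
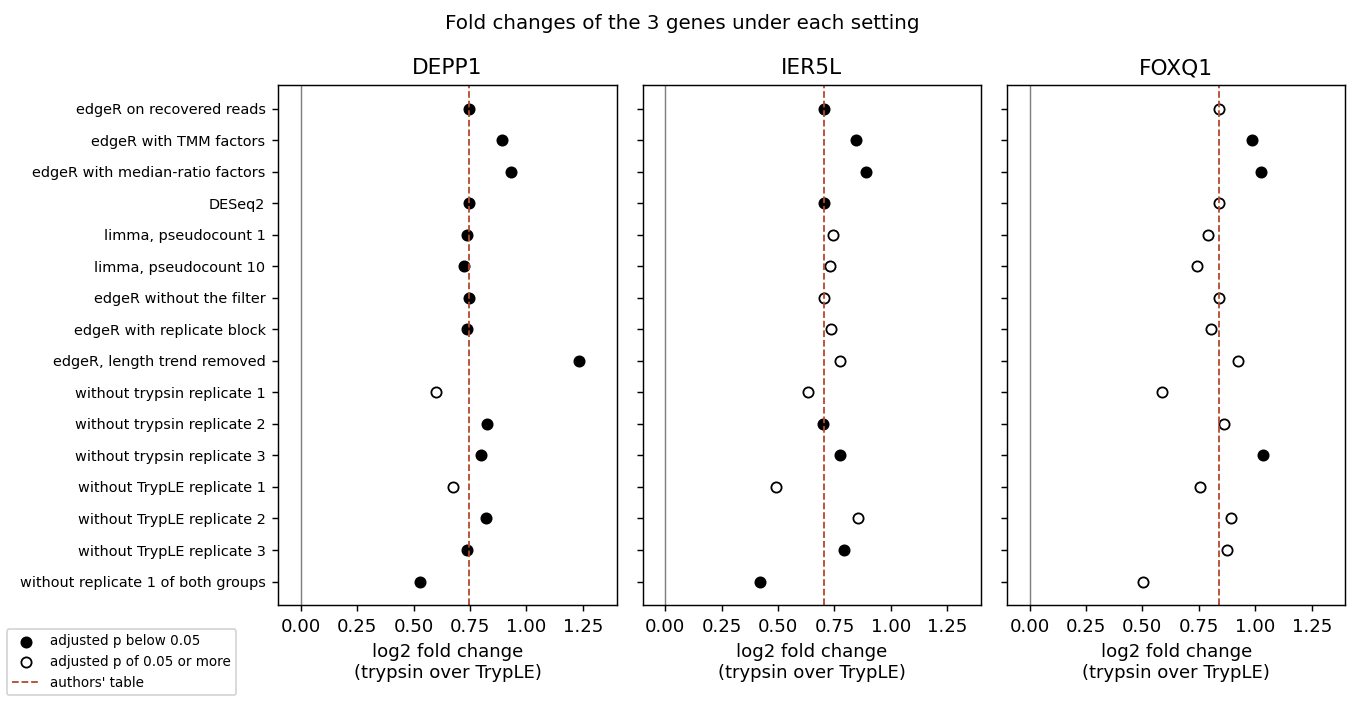
Log2 fold changes of trypsin over TrypLE (horizontal axes) for the 3 genes under each of 16 settings (rows), with filled points for an adjusted p below 0.05, open points for others and a dashed line at the value in the authors' deposited table. All points lie above 0, and the lowest in each panel, 0.53, 0.42 and 0.50, come from the fit without replicate 1 of both groups.

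Gene length set DEPP1 apart from most genes on its side. In the authors' deposited table the genes past the threshold had a median length of 5994 bases on the higher side and 693 bases on the lower side, against 985 bases for DEPP1. Of the 149 genes under 1000 bases that passed, 4 were higher, and DEPP1 was the only one of these 4 whose symbol is not a LOC number. IER5L and FOXQ1, at 2700 and 2646 bases, were near the median of 2060 bases of the listed genes. When a trend on length, fitted over the listed genes, was taken out of each library, the edgeR log2 fold change of DEPP1 went from 0.74 to 1.23 (adjusted p = 0.00253). Those of IER5L and FOXQ1 went to 0.78 and 0.92, with adjusted p of 0.219 and 0.212. The trend rests on genes selected for a difference, most of the short ones lower, so the larger value for DEPP1 is relative to them.

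**Figure D3:**
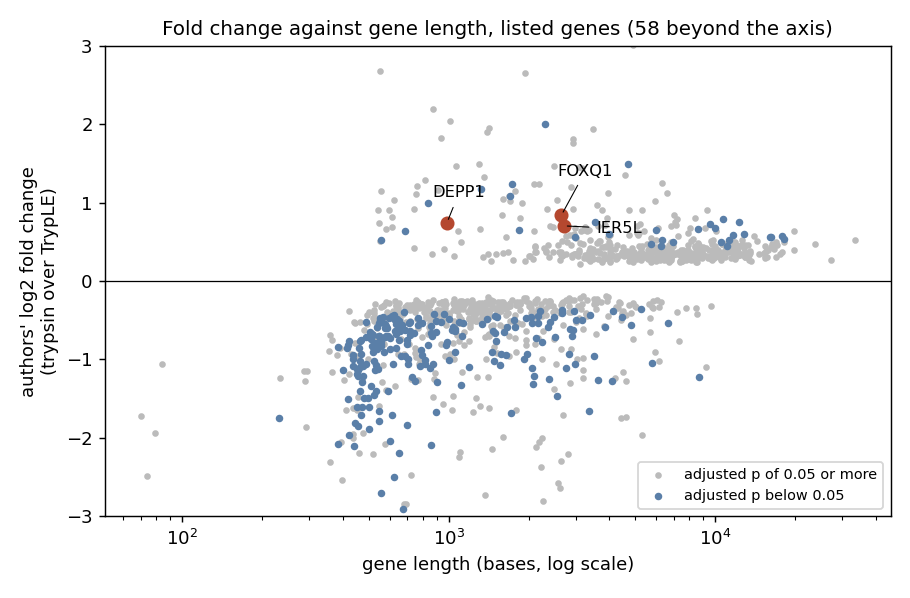
Log2 fold change of trypsin over TrypLE in the authors' deposited table (vertical axis) against gene length in bases (horizontal log axis) for the listed genes, in blue where the adjusted p is below 0.05, with the 3 genes in red and 58 genes beyond 3 on the log2 axis left out. DEPP1, at 985 bases, lies above 0 where most genes past the threshold lie below it.

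DEPP1 is the one of the 3 with values at later times. The authors' group means are on an FPKM scale and carry no error. They were 58.8 in the enzyme-free control, 53.2, 25.2 and 69.5 at 0, 8 and 24 h after trypsin, and 31.8, 26.5 and 50.6 at 0, 8 and 24 h after TrypLE. The mean after trypsin at 0 h was thus near that of the control, at 0.905 of it, while the mean after TrypLE stood at 0.542. At 8 h both enzymes had low means, 0.429 and 0.451 of control, and at 24 h both were back near control, at 1.18 and 0.861.

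From highest to lowest the order of DEPP1 means was trypsin at 24 h, control, trypsin at 0 h, TrypLE at 24 h, TrypLE at 0 h, TrypLE at 8 h and trypsin at 8 h. The widest step down, 37.1%, lay between TrypLE at 24 h and TrypLE at 0 h. The other steps between neighbours were 4.87% to 16.7%. The coefficient of variation between libraries at 0 h was 16.8% after trypsin and 10.1% after TrypLE. These values describe single libraries of those groups, not the error of a mean, and serve as a scale without a test. The steps from control to trypsin at 0 h (9.48%), from there to TrypLE at 24 h (4.87%) and from TrypLE to trypsin at 8 h (4.91%) were under both values. Those from trypsin at 24 h to control (15.5%) and from TrypLE at 0 h to TrypLE at 8 h (16.7%) lay between them. The ratio of trypsin to TrypLE was 1.67 at 0 h, 0.951 at 8 h and 1.37 at 24 h. With 1 mean per group, none of the later differences has a replicate check.

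Both features can be set beside the rest of that table, whose genes the authors selected by a criterion that the sources used here do not state. Both 8 h means lay below 0.5 of control in 30 of the 340 genes, or 8.82%, DEPP1 included. Of the 13 genes in it that passed on the higher side of the 0 h comparison, 10 had a trypsin mean at 0 h nearer to control than the TrypLE mean, as DEPP1 did. Over all 340 genes this was so for 37.1%. The 13 genes were selected by a comparison of these same 0 h groups, so the contrast is a description. Over the 340 genes, the median ratio to control at 0 h was 0.706 after trypsin and 1.05 after TrypLE. DEPP1, at 0.905 and 0.542, thus had its lower mean in the other group.

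Likeness to the 7 means of DEPP1 was measured by Pearson correlation of log2(mean + 1). Of the 340 genes, only those with a symbol among the 206 also listed in the 0 h comparison were searched. The most alike of these were CEBPB (r = 0.935), a transcription factor of stress and inflammation, LOC103224057 (r = 0.887) and NCAPD2 (r = 0.824), a condensin subunit. LOC103224057 is described there as thioredoxin interacting protein. These correlations describe 7 points from the same libraries. CEBPB had means of 106 in control, 89.9, 36.9 and 145 at 0, 8 and 24 h after trypsin, and 70.0, 39.2 and 138 at these times after TrypLE. LOC103224057 had 29.6 in control, 32.2, 13.8 and 105 after trypsin, and 21.9, 12.9 and 51.9 after TrypLE. Like DEPP1, both had their lowest means at 8 h after either enzyme. From 8 to 24 h the mean of DEPP1 went up 2.76 times after trypsin and 1.91 times after TrypLE, that of CEBPB 3.92 and 3.52 times, and that of LOC103224057 7.59 and 4.02 times.

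**Figure D4:**
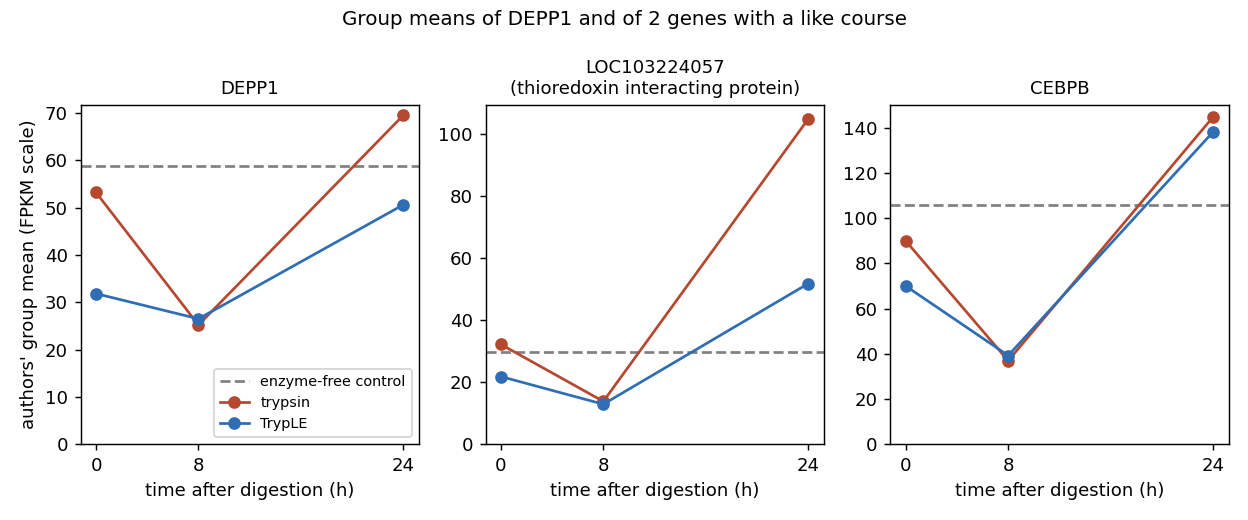
The authors' group means on an FPKM scale (vertical axes, from 0) at 0, 8 and 24 h after trypsin or TrypLE for DEPP1, LOC103224057 and CEBPB, with the enzyme-free control as a dashed line. DEPP1 starts at 53.2 after trypsin and 31.8 after TrypLE, reaches 25.2 and 26.5 at 8 h and ends at 69.5 and 50.6.

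The 1237 listed genes are 8.14% of the 15194 in the authors' adjustment, and a gene outside the table has no value here. Of 40 forkhead genes, FOXQ1 and FOXO6 were listed. FOXO6, a FOXO factor described mainly in brain, had normalised counts of 919, 909 and 902 for trypsin and of 514, 800.1 and 742 for TrypLE, in the order of the replicate numbers. Like IER5L it was lowest in TrypLE replicate 1, and by the authors' deposited table its log2 fold change of 0.41 missed the threshold (adjusted p = 0.282). Of 4 genes named for an immediate early response, IER5L and IER3 were listed. IER3, a stress-induced regulator of cell survival that shares the name, had 3419, 2740 and 2884 counts after trypsin and 3744, 4021 and 3840 after TrypLE, the opposite direction to IER5L, and missed the threshold as well (log2 fold change -0.36, adjusted p = 0.0853 by the authors' deposited table).

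Of 32 symbols on a list of FOXO targets, 6 were listed. Apart from DEPP1, 2 of them were higher and 3 lower, with a median log2 fold change of -0.22 beside -0.29 over all listed genes. Of these 5, matched by symbol, none passed as higher and 1, GADD45A, passed as lower by the authors' deposited table. The shares of all listed genes were 2.83% and 17.5%. GADD45A, a growth arrest gene that FOXO and p53 can induce, had a mean of 404 ± 27.0 normalised counts with trypsin and 639 ± 14.9 with TrypLE (SD, n = 3 each). Its log2 fold change was -0.66 (adjusted p = 0.000132 in the authors' deposited table). Refitted with edgeR, its log2 fold change was -0.51 under TMM factors, -0.47 under median-ratio factors and -0.32 with the length trend removed, and the call was lost in each. The call was also lost without any 1 library other than trypsin replicate 1, where the log2 fold change stayed at -0.63 to -0.68. Thioredoxin interacting protein, another target on the list, is entered as LOC103224057. It was not matched by symbol and is left out of the counts and median above. Its means were 1509 ± 78.0 counts with trypsin and 1021 ± 50.9 with TrypLE (SD, n = 3 each), with a log2 fold change of 0.56 that passed (adjusted p = 0.000116 in the authors' deposited table). CITED2, GABARAPL1 and RICTOR did not pass, and the authors' deposited table gives -0.22, -0.36 and 0.36 as their log2 fold changes. IGFBP1, a secreted binder of insulin-like growth factors, had at most 8.80 counts in any library.

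Of the 20 genes of epithelial to mesenchymal transition and Wnt signalling linked to FOXQ1, 0 were listed, and so were 0 of 16 phosphatase 2A subunits and CDC25 genes. Of 20 heat shock genes BAG3 was listed, and it did not pass, with 0.27 on the log2 scale by the authors' deposited table. None of the 3 genes appears in any of the 274 pathways of the authors' enrichment table. Among markers, TJP1 of 10 epithelial and AQP1 of 8 renal tubule genes were listed, neither past the threshold, and the means of AQP1 were 20018 ± 704 counts with trypsin and 22777 ± 896 with TrypLE (SD, n = 3 each). Of 17 fibroblast, endothelial and immune markers 0 were listed. Since the table keeps genes by their p, this says nothing of whether the others were expressed. These lists were matched by symbol, so a gene entered under a LOC number would be missed.

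Among the 35 genes on the higher side, 11 have an entry in the protein family column of the authors' deposited table. FOXQ1 and NR2F2, an orphan nuclear receptor with a log2 fold change of 0.53, are the 2 assigned to families of DNA-binding transcription factors there. ZBTB6, a zinc finger protein, is entered under another family. The remaining 8 are ASPM, RANBP2, CENPE, VCPIP1, DYNC2H1, LRBA, RBM15 and TOP2A, whose log2 fold changes ran from 0.48 for TOP2A to 0.76 for ASPM.

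Over the 6 libraries, the genes with the most similar course were compared by Pearson correlation of log2(normalised count + 1), again as a description. For DEPP1 they were DDIT4 (r = 0.974), AHNAK2 (r = 0.970) and GTPBP3 (r = 0.965). DDIT4, an inhibitor of mTORC1 signalling that stress induces, had 554, 437 and 451 counts for trypsin and 254, 372 and 291 for TrypLE, with the same libraries at the extremes. For FOXQ1 the nearest were JAM2 (r = 0.991), F10 (r = 0.973) and FAM193B (r = 0.961), and for IER5L they were ZNF579 (r = 0.999), SMTNL2 (r = 0.992) and LOC103247046 (r = 0.987). Of these 9 genes only DDIT4 had an adjusted p below 0.05 in the authors' deposited table. Among the 3 genes themselves r was 0.931 for DEPP1 with FOXQ1, 0.893 for DEPP1 with IER5L and 0.869 for FOXQ1 with IER5L. All were chosen or listed for a difference between the groups, and each r includes that difference.

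After the mean of each group was subtracted, so that only differences within groups remain, r was 0.780 for DEPP1 with FOXQ1, 0.644 for DEPP1 with IER5L and 0.609 for FOXQ1 with IER5L. The nearest genes to DEPP1 were then EDF1, METRN and LOC103247992 (r = 0.990, 0.988 and 0.988). Among those to IER5L were ZNF579 and RTL8B (r = 0.997 and 0.987), and those to FOXQ1 were JAM2, NR4A1 and LOC119618202 (r = 0.972, 0.947 and 0.930). ZNF579 and JAM2 led both ways of comparing. NR4A1, an early response nuclear receptor, had 113, 99.0 and 73.1 counts for replicates 1, 2 and 3 of the trypsin group, while TrypLE replicates 1, 2 and 3 had 255, 312 and 335. Like FOXQ1 it was highest in replicate 1 and lowest in replicate 3 of the trypsin libraries and lowest in TrypLE replicate 1 within that group, while its group difference had the opposite sign.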

How the data were processed

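Per the submitters' processing notes, the tools behind the RNA-seq values were HISAT2 2.0.5 (alignment) and featureCounts 1.5.0-p3 (counting). The sources used here name neither genome build nor differential test. The deposited comparison table holds genes with an unadjusted p-value below 0.05 in the authors' test, with the authors' log2 fold change and adjusted p, equal to a Benjamini-Hochberg adjustment over 15194 genes. Its library columns are a signal, the read count divided by a size factor, which the authors deposited without the counts. Divided by the smallest step of its column, 100% of the values were whole within 0.01 reads. TrypLE replicate 1 shows this over fewer low values. Size factors ran from 0.944 to 1.09 and reads over the listed genes from 1656319 to 2192333. The union table's unit is not named. Normalised counts per kilobase were 15.75 times the authors' trypsin values at 0 h, with a coefficient of variation of 0.0143%, so the authors' values are called an FPKM scale.

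The listed genes were refitted in R 4.3.3 with limma 3.58.1, DESeq2 1.42.0 and edgeR 4.0.16, with adjustment over 15194 genes. The edgeR quasi-likelihood test with its default filter was the planned test. As the table holds selected genes, the authors' values are the main ones. Pseudocounts were 1 and 10. The scripts were tested on simulated counts. Named are the 3 genes, listed members of the pathway lists, genes past the threshold on the higher side with a protein family entry, and the 3 genes most alike to each (mean of at least 50 normalised counts for library values). The genes and lists were chosen with earlier results of these data known. The p-values rest on 3 samples per group and, in the refits, measure the spread between them. Where libraries were left out, fewer samples remained. Python 3.11.15 was used for other values. The result of 1 pathway list and 1 of the similar genes are not reported here.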

Additional observations from a re-analysis of the deposited data

How the results depend on the processing

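All 3 genes stayed higher after trypsin in each of 16 settings, 15 planned and 1, without replicate 1 of both groups, chosen after seeing the data. Against 0.74 in the authors' deposited table, DEPP1 moved to 1.23 with the length trend removed and to 0.53 without replicate 1 of both groups, where FOXQ1 moved to 0.50 from 0.84. Leaving out 1 library gave 0.60 to 0.83 for DEPP1, 0.59 to 1.03 for FOXQ1 and 0.49 to 0.86 for IER5L. Of 3 genes past the threshold, 1 (DEPP1) remained with limma under either pseudocount, without the expression filter, with the length trend removed and with the replicate block, and 0 to 3 without 1 library. With the block the adjusted p by edgeR was 0.0457 for DEPP1, 0.089 for IER5L and 0.16 for FOXQ1. Deviations of same-numbered libraries over the listed genes correlated at -0.0046, 0.072 and -0.047, so the numbers were not treated as pairs. As these genes were selected by p, the correlations cannot settle whether the samples were paired. Of the other pathway list genes matched by symbol, 0 higher and 1 lower (GADD45A) passed in the authors' deposited table. Every listed gene has an unadjusted p below 0.05 there. These counts and those that follow leave out thioredoxin interacting protein, entered as LOC103224057, which passed there as higher. Lower calls were 0 with TMM factors, median-ratio factors and the length trend removed, and 0 to 1 without 1 library. Without replicate 1 of both groups, 1 passed as higher (RICTOR) and 2 as lower. The causes were not tested. With 2 libraries per group and selected genes, that fit called 20.9% of genes as higher. FOXQ1 had the fewest reads of the 3 genes, at 91 to 244 per library, and the part of depth in its calls was not tested.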
